A study of Mus musculus with 11 samples.

Results

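The genes described here take up, store, release and sense iron. They are *Tfrc*, *Trf*, *Slc11a2*, *Slc11a1*, *Hmox1*, *Fth1*, *Ftl1*, *Slc40a1*, *Cp* and *Ireb2*, chosen by name from the deposited count table. All 10 are among the 29307 listed genes, and all 10 had enough counts to enter the test across 12905 genes. RNA came from liver sinusoidal ECs of male C57BL/6J mice, 10 to 12 weeks of age, that were either germ-free (GF, 5 mice) or conventionally raised under specific-pathogen-free conditions (CONV-R, 6 mice). Both groups stem from the same colonies and received the same autoclaved standard diet, and no transgene or drug was used, so the groups differ by label in colonization only. GF mice lived in film isolators, so the housing cannot be told apart from the colonization. The paper also reports fewer sorted ECs and less total RNA from GF than from CONV-R livers. These differences in material cannot be told apart from the colonization either. The ECs were enriched on magnetic beads for CD146 and then sorted for CD31, CD105 and CD146, and the RNA was amplified as cDNA before library preparation. There was 1 library per mouse, and the authors left out 1 further GF library, so the labels number the GF mice 1, 2, 4, 5 and 6.

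Iron circulates bound to transferrin and enters cells by endocytosis of the transferrin receptor, after which a divalent metal transporter moves it from the endosome into the cytosol. Ferritin stores iron that is not used, ferroportin exports it, and copper ferroxidases oxidize the exported iron so that transferrin can bind it. In the liver, macrophages called Kupffer cells recover iron from old red cells, hepatocytes secrete transferrin, ceruloplasmin and the hormone hepcidin, and sinusoidal ECs release the bone morphogenetic proteins that set hepcidin synthesis.

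Several of these transcripts carry an iron-responsive element, a short hairpin that iron regulatory proteins bind when iron is scarce. Bound in the 5′ UTR the element blocks translation, and bound in the 3′ UTR it protects the transcript from decay. The place of an element thus shows whether its own effect would be read in protein or in RNA. Other routes by which iron may act on these genes were not examined. The transcripts of GENCODE M21 (GRCm38) were searched on the sense strand for a C, any 5 bases, CAGTGN and any 5 bases, where the last 5 pair with the first 5 (G-T pairs allowed). A match lay in the 5′ UTR of *Fth1*, *Ftl1* and *Slc40a1* and at 4 places in the 3′ UTR of *Tfrc*. Of 21901 protein-coding genes, 31 (0.142%) held a match in a 5′ UTR and 129 (0.589%) in a 3′ UTR. The 7 matches are shown because they place the element in 4 members, in genes of storage, export and entry; the loop letters are alike because the search asked for them. Each line gives the 17-base match with 6 bases on either side, 5′ to 3′ on the transcript's strand, and the capitals mark the loop and the base after it.
*Tfrc* 3′ UTR, chr16:32631225-32631241, plus strand: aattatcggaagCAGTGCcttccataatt
*Tfrc* 3′ UTR, chr16:32631604-32631620, plus strand: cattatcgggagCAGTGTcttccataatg
*Tfrc* 3′ UTR, chr16:32631669-32631685, plus strand: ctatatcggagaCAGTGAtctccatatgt
*Tfrc* 3′ UTR, chr16:32631716-32631732, plus strand: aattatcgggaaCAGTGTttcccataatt
*Fth1* 5′ UTR, chr19:9982738-9982754, plus strand: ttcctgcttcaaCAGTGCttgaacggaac
*Ftl1* 5′ UTR, chr7:45459785-45459801, minus strand: gtcttgcttcaaCAGTGTttgaacggaac
*Slc40a1* 5′ UTR, chr1:45925471-45925487, minus strand: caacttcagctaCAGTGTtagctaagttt
The other members held no match to these letters, which says nothing of elements of another form. A match is a description of the sequence, and translation was not measured here.

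Library totals were 7922855 to 14669352 counts in CONV-R and 7242717 to 16164588 in GF mice. Endothelial markers were abundant in every library. The summed level of 9 sinusoidal markers, led by *Stab2* and *Fcgr2b*, was 27143 to 33145 CPM in CONV-R and 26579 to 36958 CPM in GF ECs. CPM are counts scaled to 1 common library total with TMM factors. Of the 9, 0 passed the test, beside 7.48% of all tested genes. At an unadjusted p under 0.05 there were 4 of the 9, and 3 of 5 general endothelial markers, beside 23% of all tested genes. All of these had a higher mean in GF ECs. The 5 general endothelial markers, led by *Cdh5* and *Eng*, summed to 5649 to 7330 and 5337 to 8719 CPM. Against these, 12 Kupffer cell and macrophage markers, led by *Clec4f* and *Cd5l*, summed to 94.1 to 244 CPM in CONV-R and 220 to 992 CPM in GF ECs. All 12 had a higher mean in GF ECs and 8 passed the test, 4 without GF replicate 6, which had the 992 CPM while the other GF mice had 220 to 404. The markers of stellate cells (led by *Lrat* and *Dcn*), monocytes and neutrophils (*Ccr2* and *Csf3r*), lymphocytes (*Ms4a1* and *Cd79a*) and cholangiocytes (*Krt19* and *Epcam*) each summed to at most 10.5 CPM, except for 11.8 and 22.1 CPM of cholangiocyte markers in GF replicates 1 and 6, and no tested marker of these lists passed. The macrophage markers are given beside the members below, since several members are known macrophage genes. In bulk libraries such as these, fewer cells of a type and less RNA per cell cannot be told apart.

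None of the 10 iron genes passed the test between GF and CONV-R ECs. The number with an adjusted p under 0.05 was 0 of 10 by the quasi-likelihood test of edgeR, Benjamini-Hochberg adjusted over 12905 genes, where 7.48% of all tested genes passed (4.8% higher and 2.67% lower in GF ECs). DESeq2 and limma voom also called 0 of 10. At an unadjusted p under 0.05 there were 2 members, *Slc11a1* and *Cp*, both with a higher mean in GF ECs, beside 2968 of the 12905 tested genes (23%), so this count does not set the members apart. The median Log2FC (GF relative to CONV-R) of the members was 0.21 beside -0.01 over all tested genes, with 6 members above and 4 below 0. The libraries of the 2 groups overlapped for all 10 members, and 5.59% of all tested genes did not overlap. The 95% intervals of the folds were narrow for the abundant members and wide for the sparse ones. They reach from 0.76 to 1.11 for *Slc40a1* and from 0.72 to 1.01 for *Ireb2*, but from 0.49 to 1.82 for *Tfrc* and from 0.96 to 3.51 for *Trf*.

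**Figure D1:**
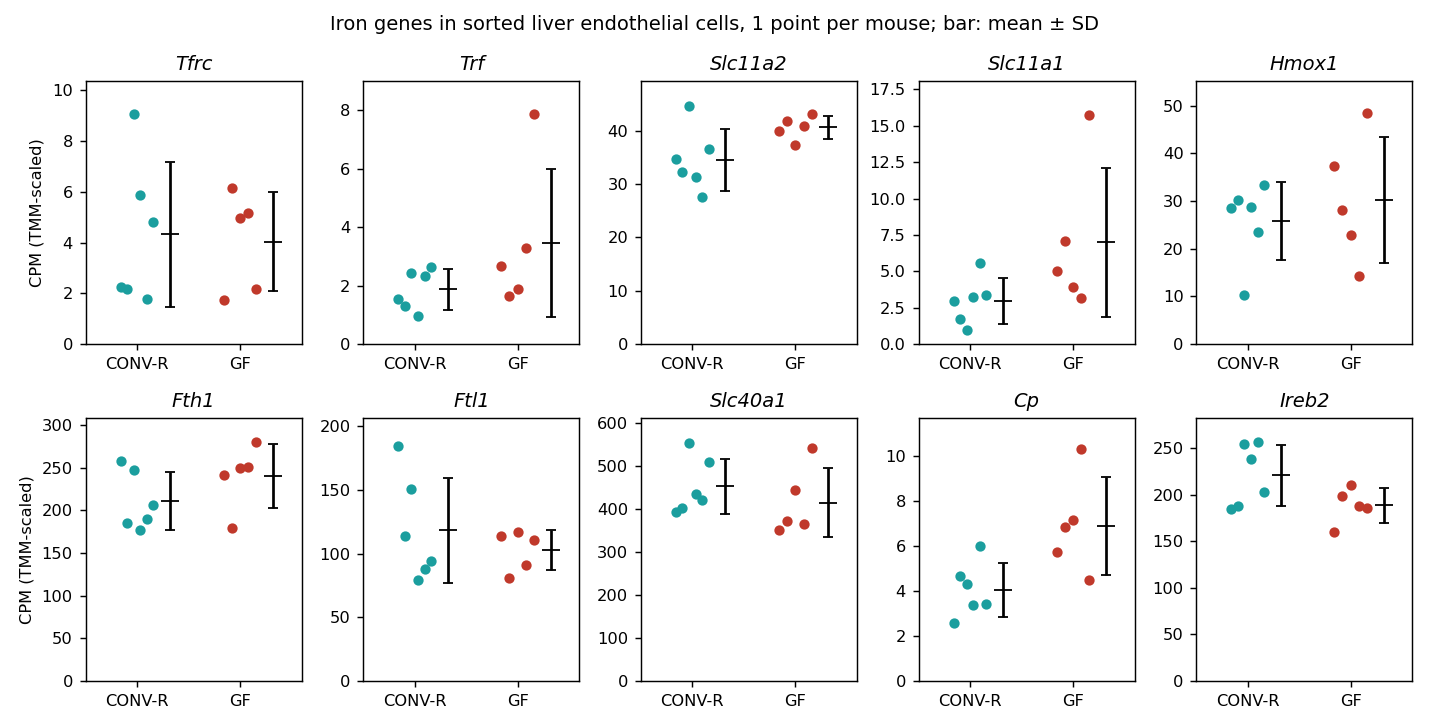
Level of each iron gene in every mouse (y axis, TMM-scaled CPM, starting at 0; points, mice; bars, mean ± SD, n = 6 CONV-R and 5 GF). The groups overlap in all 10 panels, and the GF point standing above the others in *Trf* (7.85 CPM) and *Slc11a1* (15.7 CPM) is GF replicate 6.

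**Figure D2:**
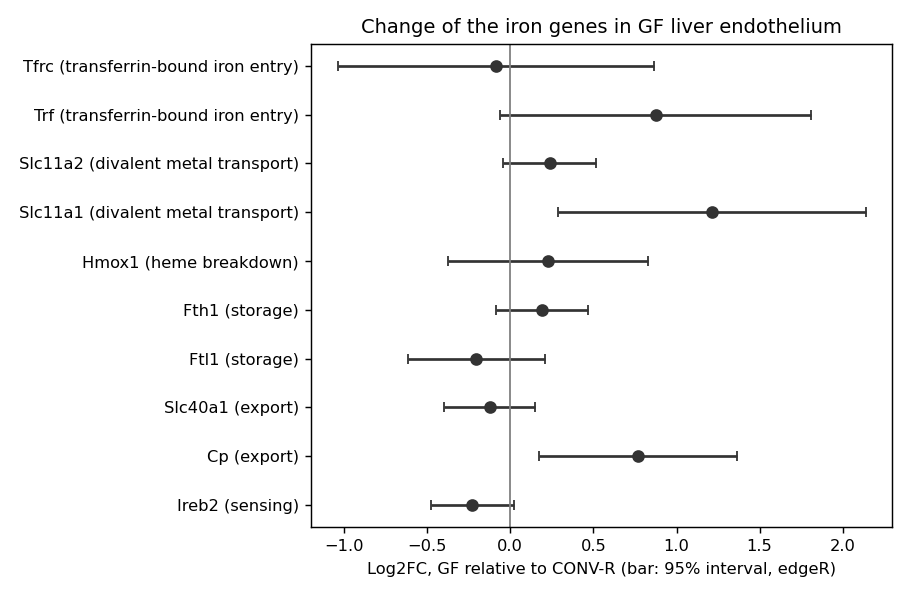
Log2FC of GF relative to CONV-R ECs for the 10 genes (x axis, log2 units; bars, 95% intervals from edgeR), with the role of each gene on the y axis. The intervals of *Slc11a1* and *Cp* lie above 0 before adjustment for the number of genes, and the other 8 include 0.

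Per kilobase of exon, the members ranged from abundant ferritin and ferroportin transcripts to sparse ones. In CONV-R ECs the mean levels were 88.4 CPM per kb for *Ftl1*, 60.7 for *Fth1* and 50.2 for *Slc40a1*, the ferritin chains and the exporter. They were followed by *Ireb2* at 23.3, *Hmox1* at 14.7 and *Slc11a2* at 5.43 CPM per kb. The sparse set was *Slc11a1* at 0.80, *Tfrc* at 0.70, *Trf* at 0.56 and *Cp* at 0.42 CPM per kb. The GF means were 76.7, 69.2 and 46.0 CPM per kb for the first 3 genes, 19.9, 17.3 and 6.39 for the next 3, and 1.89, 0.65, 1.05 and 0.72 for the sparse set in the same order. Thus the ferritin and ferroportin transcripts stood above those of *Tfrc* and *Trf* in both groups, while *Cp*, which also serves export, was among the sparse genes. Neighbours in this order were separated without overlap between *Slc40a1* and *Ireb2* and between *Slc11a2* and *Slc11a1* in both groups, between *Ireb2* and *Hmox1* in CONV-R mice, and between *Hmox1* and *Slc11a2* in GF mice. The ranges of all other neighbours overlapped between mice. Within single libraries, *Ftl1* and *Fth1* each lay above *Slc40a1* in 11 of 11 libraries, and *Ftl1* lay above *Fth1* in 10 of 11, the exception being GF replicate 5. The lengths are the union of all annotated exons (3469 bases for *Fth1*, where long annotated transcripts add to it), so levels per kb depend on the annotation. Before division by length the CPM of *Fth1* was 1.39 to 2.74 times that of *Ftl1*, so their order per kb rests on the lengths.

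**Figure D3:**
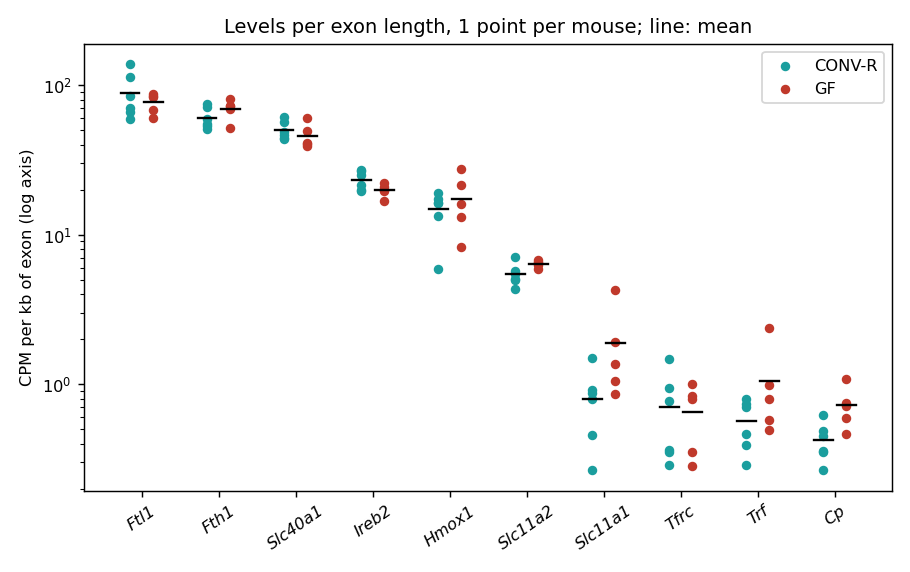
Level of each iron gene per kilobase of annotated exon (y axis, CPM per kb, log axis; points, mice; lines, group means). *Ftl1*, *Fth1* and *Slc40a1* have means of 46.0 to 88.4 CPM per kb, and *Slc11a1*, *Tfrc*, *Trf* and *Cp* have means of 0.42 to 1.89 CPM per kb.

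*Tfrc* encodes the transferrin receptor, which carries iron-loaded transferrin into endosomes, and lies on chr16:32608920-32632794 (GRCm38, plus strand). Its 3′ UTR holds the 4 elements printed above. In CONV-R ECs it ranged from 1.77 to 9.07 CPM with a median of 3.53, and in GF replicates 1, 2, 4, 5 and 6 it was 1.75, 6.15, 4.95, 5.15 and 2.17 CPM. GF replicates 1 and 6 sat with the lowest CONV-R mice, CONV-R replicate 3 was the highest of all, and the groups overlapped along most of their range. The means were 4.32 ± 2.84 CPM (SD, n = 6) and 4.03 ± 1.95 CPM (SD, n = 5), with a Log2FC of -0.09 (SE 0.45, edgeR quasi-likelihood test, Benjamini-Hochberg adjusted p = 0.942). With 16 to 74 counts per library and a 5.11-fold range among CONV-R mice, the interval of the fold spans both directions widely, and the sign of the Log2FC turned under several alternatives.

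*Trf* encodes transferrin, the iron carrier of plasma, and lies on chr9:103204001-103230444 (minus strand). It ranged from 0.96 to 2.63 CPM in CONV-R ECs with a median of 1.94, and was 2.66, 1.63, 1.90, 3.30 and 7.85 CPM in GF replicates 1, 2, 4, 5 and 6. GF replicate 6 stood apart, GF replicates 2 and 4 lay inside the CONV-R range, and GF replicates 1 and 5 lay above it. The means were 1.87 ± 0.69 CPM (n = 6) and 3.47 ± 2.54 CPM (n = 5), a Log2FC of 0.88 (SE 0.44, edgeR quasi-likelihood test, Benjamini-Hochberg adjusted p = 0.249). Without GF replicate 6 the Log2FC was 0.34 (adjusted p = 0.686, same test). That mouse was also the highest for the summed macrophage markers, at 992 CPM. The 9 hepatocyte markers, led by *Alb* and *Fabp1*, summed to 25.4 to 59.4 CPM in CONV-R and 30.6 to 64.4 CPM in GF ECs, with 43.7 CPM in GF replicate 6 and none at 0 in all libraries. The part of macrophage or hepatocyte RNA in the *Trf* values was not tested. The exons of *Trf* overlap those of *Gm20425* on the same strand over 2108 bases, and that gene is listed with 0 counts in every library. Of the 50-base windows of *Trf* transcripts, 59.4% also occur in transcripts of other genes, so its counts are uncertain.

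*Slc11a2* encodes the divalent metal transporter DMT1, which moves iron out of endosomes, and lies on chr15:100387898-100425072 (minus strand). CONV-R ECs had 27.6 to 44.7 CPM with a median of 33.4, and GF replicates 1, 2, 4, 5 and 6 had 40.03, 41.7, 37.3, 40.9 and 43.2 CPM. All 5 GF mice lay above the CONV-R median and above 5 of the 6 CONV-R mice, while CONV-R replicate 3 lay above every GF mouse. The means were 34.5 ± 5.86 CPM and 40.6 ± 2.20 CPM, a Log2FC of 0.24 (SE 0.13, edgeR quasi-likelihood test, Benjamini-Hochberg adjusted p = 0.301), and the 95% interval of the fold was 0.97 to 1.43.

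*Slc11a1* encodes NRAMP1, a metal transporter of the phagosome membrane of macrophages, and lies on chr1:74375195-74386062 (plus strand). It had the highest Log2FC of the members and the smallest unadjusted p, 0.0134. CONV-R ECs had 0.98 to 5.56 CPM with a median of 3.08, and GF replicates 1, 2, 4, 5 and 6 had 5.06, 7.12, 3.90, 3.17 and 15.7 CPM. All GF mice lay above the CONV-R median, but only GF replicates 2 and 6 lay above the highest CONV-R mouse. The means were 2.97 ± 1.58 CPM and 6.99 ± 5.10 CPM, a Log2FC of 1.21 (SE 0.44, 95% interval of the fold 1.22 to 4.41, edgeR quasi-likelihood test, Benjamini-Hochberg adjusted p = 0.104). Without GF replicate 6 the Log2FC was 0.69 (adjusted p = 0.363, same test). That mouse was also the highest in the summed macrophage markers, at 992 CPM, and GF replicate 2 was next in both, with 404 CPM of markers. The 3 cholangiocyte markers were also highest in that mouse, at 22.1 CPM, followed by GF replicate 1 at 11.8 CPM, beside 0.19 to 4.62 CPM in the other GF mice and 0.07 to 2.02 CPM in CONV-R mice. The part of macrophage or cholangiocyte RNA in the *Slc11a1* difference was not tested.

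*Hmox1* encodes heme oxygenase 1, which frees iron from heme, and lies on chr8:75093621-75100589 (plus strand). CONV-R ECs had 10.3 to 33.4 CPM with a median of 28.7, and GF replicates 1, 2, 4, 5 and 6 had 37.4, 28.1, 22.9, 14.4 and 48.5 CPM. GF mice lay on both sides of the CONV-R median, with replicates 1 and 6 above all CONV-R mice and replicate 5 near the lowest. The means were 25.8 ± 8.25 CPM and 30.2 ± 13.2 CPM, a Log2FC of 0.23 (SE 0.28, edgeR quasi-likelihood test, Benjamini-Hochberg adjusted p = 0.690). Without GF replicate 6, the highest mouse for the macrophage and the cholangiocyte markers too, the Log2FC was -0.0011. It was 0.07 without CONV-R replicate 3, 0.14 without GF replicate 1 and 0.40 without GF replicate 5. GF replicates 1 and 6 were the 2 highest mice for the cholangiocyte markers as well as for *Hmox1*, and the part of either cell type in *Hmox1* was not tested.

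**Figure D4:**
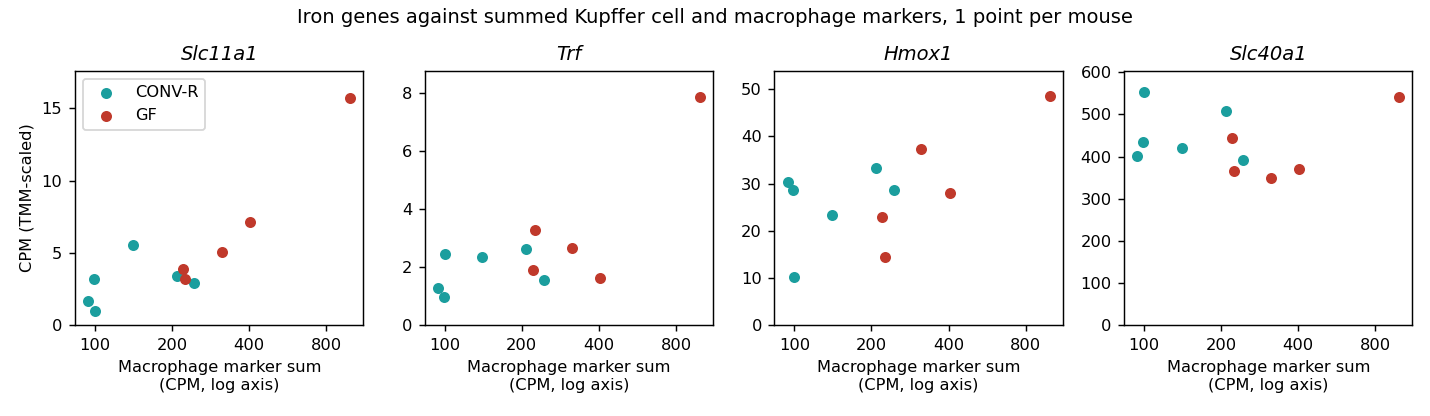
Levels of 4 iron genes known from macrophages or hepatocytes (y axes, TMM-scaled CPM) against the summed level of 12 Kupffer cell and macrophage markers (x axis, CPM, log axis), 1 point per mouse. GF replicate 6, at 992 CPM of markers, is the highest point for *Slc11a1* (15.7 CPM), *Trf* (7.85 CPM) and *Hmox1* (48.5 CPM), while for *Slc40a1* a CONV-R mouse (554 CPM) is the highest.

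Ferritin is built from a heavy chain with ferroxidase activity, encoded by *Fth1* (chr19:9980598-9985098, plus strand), and a light chain that helps form the mineral core, encoded by *Ftl1* (chr7:45457944-45459884, minus strand). Both carry the 5′ UTR element printed above, with the same 5 bases before the loop. *Fth1* had 177 to 257 CPM in CONV-R ECs with a median of 198, and 241, 179, 249.6, 250.2 and 280 CPM in GF replicates 1, 2, 4, 5 and 6. GF replicate 2 lay with the lowest CONV-R mice and replicate 6 above all of them. The means were 210.4 ± 33.9 CPM and 240.0 ± 37.2 CPM, a Log2FC of 0.19 (SE 0.13, edgeR quasi-likelihood test, Benjamini-Hochberg adjusted p = 0.414).

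*Ftl1* had 79.1 to 185 CPM in CONV-R ECs with a median of 104, and 114, 80.7, 117, 91.4 and 111 CPM in GF replicates 1, 2, 4, 5 and 6. All GF mice lay within the CONV-R range, whose top was set by CONV-R replicates 1 and 3. The means were 119 ± 41.3 CPM and 103 ± 15.9 CPM, a Log2FC of -0.20 (SE 0.19, edgeR quasi-likelihood test, Benjamini-Hochberg adjusted p = 0.580). With 1 mouse left out the Log2FC ran from -0.30, without CONV-R replicate 4, to -0.03, without CONV-R replicate 1, and was -0.13 without CONV-R replicate 3 or GF replicate 2. Of its 50-base windows, 58.4% also occur in other annotated genes, among them processed copies named *Ftl1-ps1* and *Ftl1-ps2*, none of which is listed in the count table. How reads with several matches were counted is not given in the sources used here, so the level of *Ftl1* is uncertain.

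The Log2FC values of the chains had opposite signs, neither passed the test, and that of *Ftl1* was near 0 without CONV-R replicate 1. The ratio of *Fth1* to *Ftl1* CPM was 1.39, 1.62, 1.64, 2.24, 2.16 and 2.18 in CONV-R replicates 1 to 6, and 2.12, 2.22, 2.13, 2.74 and 2.52 in GF replicates 1, 2, 4, 5 and 6. CONV-R replicates 1, 2 and 3 lay below every GF mouse, whereas CONV-R replicates 4, 5 and 6 lay among them. The ratio was looked at after the values were seen and was not tested.

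*Slc40a1* encodes ferroportin, the only known iron exporter of mammalian cells and the target of hepcidin, and lies on chr1:45908068-45926523 (minus strand). It had 393 to 554 CPM in CONV-R ECs with a median of 427, and 350.2, 370.5, 444, 365 and 542 CPM in GF replicates 1, 2, 4, 5 and 6. GF replicates 1, 2 and 5 lay below every CONV-R mouse, and replicates 4 and 6 lay within their range. The means were 452 ± 64.8 CPM and 414 ± 79.8 CPM, a Log2FC of -0.12 (SE 0.13, edgeR quasi-likelihood test, Benjamini-Hochberg adjusted p = 0.620). Ferroportin is known to be abundant in Kupffer cells, whose marker sums are given above, and their part in the *Slc40a1* levels was not tested. With 1 mouse left out its Log2FC ran from -0.24, without GF replicate 6, to -0.06, without CONV-R replicate 3 (adjusted p = 0.303 and 0.822, same test). It was -0.07 without GF replicate 1 and -0.08 without GF replicate 5.

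*Cp* encodes ceruloplasmin, a copper ferroxidase that oxidizes exported iron, and lies on chr3:19957054-20009145 (plus strand). It had 2.56 to 5.97 CPM in CONV-R ECs with a median of 3.85, and 5.71, 6.83, 7.13, 10.3 and 4.47 CPM in GF replicates 1, 2, 4, 5 and 6. All 5 GF mice lay above the CONV-R median and 3 of them above the highest CONV-R mouse. The means were 4.04 ± 1.20 CPM and 6.89 ± 2.17 CPM, a Log2FC of 0.77 (SE 0.28, 95% interval of the fold 1.13 to 2.57, unadjusted p = 0.0148, edgeR quasi-likelihood test, Benjamini-Hochberg adjusted p = 0.111). GF replicate 6, the highest mouse for macrophage markers, was the lowest GF mouse for *Cp*, and without it the Log2FC was 0.88 (adjusted p = 0.0860, same test). The gene is known from hepatocytes, whose markers had the overlapping ranges given beside *Trf*. The part of hepatocyte or macrophage RNA in the *Cp* difference was not tested. *Cp* rests on 33 to 88 counts per library, and 108 exon bases lie opposite *Hps3*, so that reads there cannot be assigned without strand. *Hps3* had 358 to 950 counts per library.

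*Ireb2* encodes iron regulatory protein 2, which binds the elements printed above and is degraded when iron is plentiful, and lies on chr9:54863789-54912530 (plus strand). It had 185 to 257 CPM in CONV-R ECs with a median of 221, and 160.1, 199, 211, 188 and 186 CPM in GF replicates 1, 2, 4, 5 and 6. All GF mice lay below the CONV-R median, and 4 of the 5 lay inside the CONV-R range. The means were 221 ± 32.9 CPM and 189 ± 18.7 CPM, a Log2FC of -0.23 (SE 0.12, edgeR quasi-likelihood test, Benjamini-Hochberg adjusted p = 0.260). The regulation of this protein by iron acts on its stability, which RNA levels do not show.

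For the 4 members with the smallest p, the tested genes most like them from mouse to mouse were found by Pearson's r of log2 CPM over the 11 libraries after the group means were subtracted. They were *Rock2* (r = 0.94), *Tmpo* (0.93) and *Mlh3* (0.92) for *Slc11a1*, and *Sclt1* (0.93), *Catsperg1* (0.92) and *Rps6* (0.92) for *Cp*. For *Trf* they were *Mapre3* (0.87), *Zfp354a* (0.87) and *Rragd* (0.86), and for *Ireb2* they were *Aebp2* (0.94), *Tssc1* (0.89) and *Amigo2* (0.89). These are the highest of 12905 genes over 11 libraries that share depth and amplification steps, and they are given as a description only.

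A wider list of iron and heme genes gave the setting of the members. Of 59 listed genes, 50 could be tested and 2 passed, 1 in each direction (4% beside 7.48% of all tested genes), and the median Log2FC was 0.03. The share lay above that of all tested genes in 8 of the 18 alternatives, so it does not stand steadily on either side of the background. By role, 0 of 7 tested genes passed for entry and endosomal reduction, 1 of 8 for heme and hemoglobin handling, 0 of 2 for storage and ferritin turnover, 0 of 1 for other ferroxidases, 0 of 8 for hepcidin and its inputs, 0 of 5 for iron and heme sensing, and 1 of 19 for mitochondrial import, iron-sulfur clusters and heme synthesis. At an unadjusted p under 0.05 there were 11 of the 50, beside 23% of all tested genes.

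The gene that rose was *Cd163*, the macrophage receptor for hemoglobin bound to haptoglobin. It had 3.92 to 8.13 CPM in CONV-R ECs with a median of 4.81, and 15.7, 36.9, 12.7, 7.79 and 38.5 CPM in GF replicates 1, 2, 4, 5 and 6. GF replicate 5 lay just below the highest CONV-R mouse and the other 4 lay above all of them. The means were 5.18 ± 1.54 CPM and 22.3 ± 14.3 CPM, a Log2FC of 2.10 (SE 0.36, edgeR quasi-likelihood test, Benjamini-Hochberg adjusted p = 0.00164). *Cd163* is itself 1 of the 12 macrophage markers, whose sums ranged from 94.1 to 244 CPM in CONV-R and from 220 to 992 CPM in GF ECs, with none at 0 in all libraries. The part of macrophage RNA in it was not tested.

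The gene that fell was *Slc25a28*, which encodes mitoferrin 2, an importer of iron into mitochondria. It had 46.0 to 71.1 CPM in CONV-R ECs with a median of 54.9, and 41.1, 34.5, 39.0, 48.0 and 33.6 CPM in GF replicates 1, 2, 4, 5 and 6. GF replicate 5 lay inside the CONV-R range and the other 4 below it. The means were 55.7 ± 8.52 CPM and 39.3 ± 5.81 CPM, a Log2FC of -0.50 (SE 0.14, edgeR quasi-likelihood test, Benjamini-Hochberg adjusted p = 0.0330). The call was lost in 7 of 18 alternatives. The related *Slc25a37*, mitoferrin 1, looked up after its values were seen, had 575 ± 68.3 CPM in CONV-R and 382 ± 130 CPM in GF ECs, a Log2FC of -0.59 that missed the threshold (edgeR quasi-likelihood test, Benjamini-Hochberg adjusted p = 0.0514). It passed in 6 of the 18 alternatives, among them DESeq2, voom and the replicate block. Mitoferrin 1 is known from developing red cells, and the 7 erythroid markers, led by *Hbb-bs* and *Alas2*, summed to 19.1 to 36.9 CPM in CONV-R and 4.88 to 24.3 CPM in GF ECs. All 5 tested erythroid markers had a lower mean in GF ECs, 0 of the 5 passed the test, and none was at 0 in all libraries. Their part in the mitoferrin values was not tested.

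In the other roles the gene with the smallest p did not pass, although *Slc39a14* and *Atoh8* passed in 5 and 4 of the 18 alternatives. *Slc39a14*, a metal importer known as ZIP14, had 7.49 ± 2.19 CPM in CONV-R and 11.97 ± 2.37 CPM in GF ECs (Log2FC 0.69, edgeR quasi-likelihood test, Benjamini-Hochberg adjusted p = 0.0666). *Ncoa4*, the receptor that brings ferritin to autophagy, had 5.39 to 8.38 CPM in CONV-R and 8.56 to 10.5 CPM in GF mice. The groups thus did not overlap, which held for 5.59% of all tested genes. Its Log2FC of 0.28 did not pass (edgeR quasi-likelihood test, Benjamini-Hochberg adjusted p = 0.415). *Heph*, which encodes the ferroxidase hephaestin, and *Bach1*, a heme-sensing repressor of *Hmox1*, had Log2FC values of 0.11 and -0.29. *Atoh8*, a target of bone morphogenetic protein signaling, had 2.18 ± 1.02 CPM and 5.17 ± 1.72 CPM (Log2FC 1.23, adjusted p = 0.0578, same test). Of the 8 tested genes of hepcidin and its inputs, 4 had an unadjusted p under 0.05, where 23% of all tested genes did. They were *Atoh8* and, named after their values were seen, *Id1*, *Neo1* and *Hfe*, with Log2FC values of 1.23, 0.75, 0.52 and 0.33. None of them passed after adjustment in the primary comparison, while *Id1* passed in 6 of the 18 alternatives, *Hfe* in 2 and *Neo1* in 1. DESeq2 called *Atoh8*, *Id1* and *Hfe*. In the same role 5 tested genes had a Log2FC above 0 and 3 below 0. Among the 3 were *Smad7* at -0.31 and *Tmprss6* at -0.05, also named after their values were seen.

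Sinusoidal ECs are known as the source of the ligands BMP2 and BMP6, and both transcripts were looked up after their values were seen. *Bmp2* had 1600 ± 88.6 CPM in CONV-R and 1862 ± 301 CPM in GF ECs (Log2FC 0.22, edgeR quasi-likelihood test, Benjamini-Hochberg adjusted p = 0.234). *Bmp6* had 167 ± 44.7 and 167 ± 35.9 CPM, with a 95% interval of the fold from 0.76 to 1.31. Both ligands were thus present in every library of either group, and neither passed the test. *Hamp*, the hepcidin gene of hepatocytes, also looked up later, had 5 counts in all CONV-R libraries together and 0 in the GF libraries, too few to test.

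**Figure D5:**
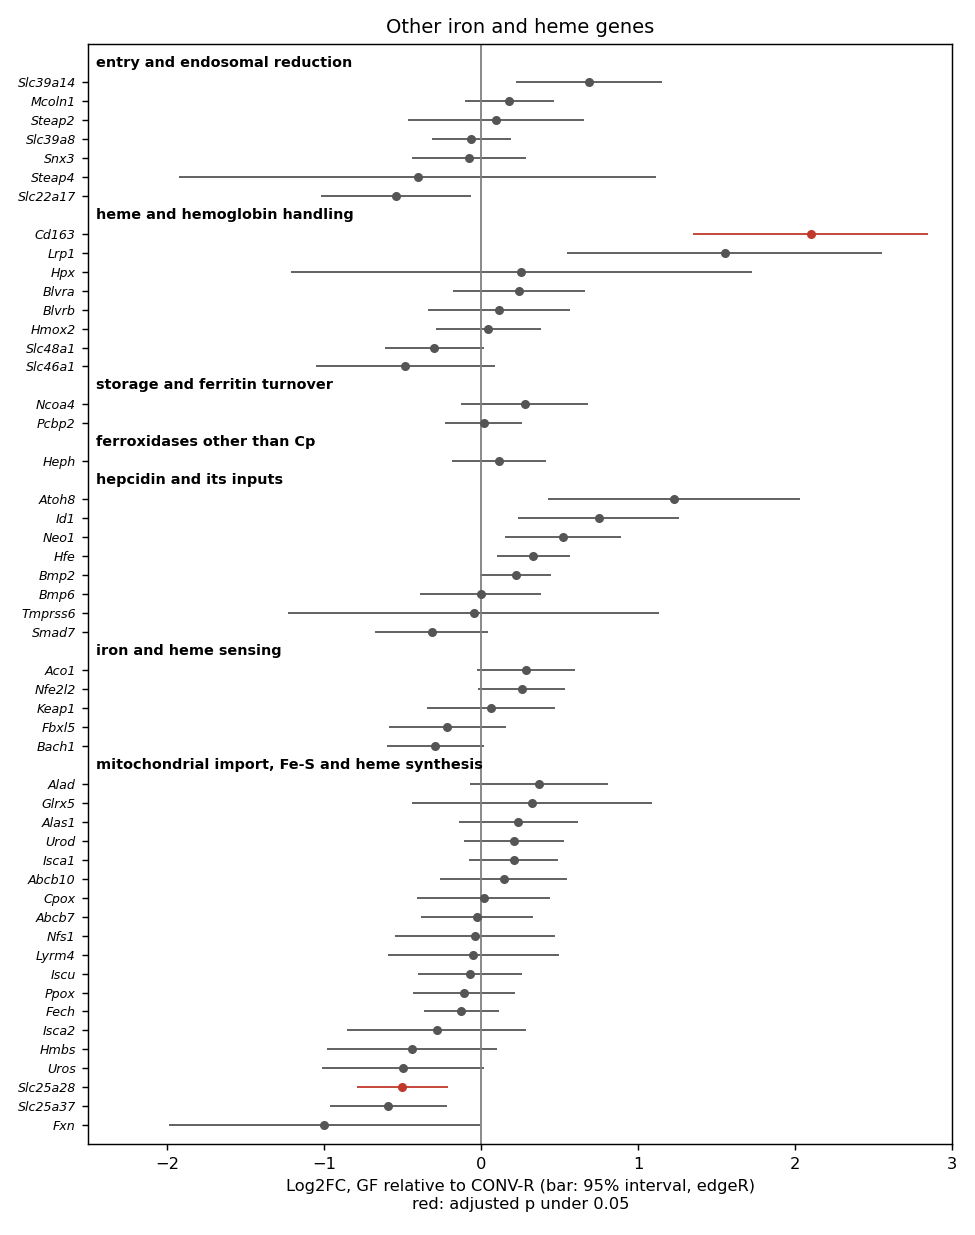
Log2FC of GF relative to CONV-R ECs for the 50 tested genes of the wider iron and heme list, grouped by role (x axis, log2 units; bars, 95% intervals from edgeR; red, adjusted p under 0.05). The genes in red are *Cd163* at 2.10 and *Slc25a28* at -0.50.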

How the data were processed

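The authors deposited raw read counts per gene for 11 libraries (single-end reads of 50 bases), made by trimming with Trim Galore, alignment by STAR (GRCm38) and counting by featureCounts; the treatment of strand and of reads with several matches is not given in the sources used here. They also deposited log2 values normalized across samples with the DESeq method, used here as an alternative only.

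Samples were grouped by the treatment label. Genes were kept by filterByExpr of edgeR 4.0.16 (R 4.3.3), scaled by TMM and compared by its quasi-likelihood test; p-values were Benjamini-Hochberg adjusted over 12905 genes, with a threshold of 0.05. All members and lists were chosen with earlier results of these data known. Named besides the 10 members were the listed iron and heme genes that passed, in each other role the gene with the smallest p, the 2 most abundant markers of each cell type and 3 genes most like each of 4 members; other iron and heme genes were named after their values were seen. Intervals are 95% from the fit. Log2 CPM used a prior count of 2. Positions, exon lengths and sequences came from GENCODE M21 (GRCm38), and the search for shared 50-base windows used its transcripts. The test was checked on simulated data with 200 changed genes.

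Alternatives were DESeq2 size factors, DESeq2 1.42.0, voom and the deposited log2 values in limma 3.58.1, no filter, at least 10 counts in every library, a block for the replicate number and each mouse left out. Depth (7242717 to 16164588 counts) limits the sparse members. 1 library per mouse was sequenced, so p-values measure the spread between mice.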

Additional observations from a re-analysis of the deposited data

Results flagged for a closer look

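In 6 of 70 sets of values examined (a gene or marker sum within a group), 1 mouse stood far from the others of its group by Dixon's criterion, which chance alone meets in about 1 of 20. *Trf* was 7.85 CPM in GF replicate 6 and 1.63 to 3.30 CPM in the other GF mice. The summed Kupffer cell and macrophage markers were 992 CPM in the same mouse and 220 to 404 CPM in the other GF mice. *Cd163* was 8.13 CPM in CONV-R replicate 1 and 3.92 to 5.21 CPM in the other CONV-R mice. In CONV-R replicate 3, *Slc39a14* was 11.8 CPM (others 5.72 to 7.70) and *Neo1* was 20.7 CPM (others 32.9 to 35.5). *Ncoa4* was 10.5 CPM in GF replicate 2 and 8.56 to 8.94 CPM in the other GF mice. The cause of these values was not tested.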

How the results depend on the processing

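None of the 10 iron genes passed the threshold in any of 18 alternatives. The Log2FC of 8 members kept its sign in every alternative run; that of *Slc11a1* ranged from 0.69 to 1.48 over 17 (it was not tested under the minimum of 10 counts in every library), and its lowest adjusted p was 0.0518, by DESeq2. The Log2FC of *Tfrc* was 0.013 with voom, 0.0099 with the deposited log2 values, 0.26 with the replicate block and -0.30 to 0.25 with 1 mouse left out, positive when CONV-R replicate 3 or 4 or GF replicate 1 or 6 was left out. That of *Hmox1* was -0.029 with the replicate block and -0.0011 to 0.40 with 1 mouse left out, lowest without GF replicate 6. Among the other iron and heme genes, 2 passed in the primary comparison, 7 with DESeq2, 5 with voom, 5 with no filter, 6 with the replicate block and 1 to 8 with 1 mouse left out (lowest, at 1, when CONV-R replicate 2 or 5 or GF replicate 1 or 6 was left out, 3 when GF replicate 2 was, 5 when CONV-R replicate 1 or 3 was, and highest when GF replicate 5 was). Their share was above that of all tested genes in 8 of 18 alternatives, for example 13.5% beside 9.83% with DESeq2, 12% beside 8.60% with the block and 16% beside 9.62% when GF replicate 5 was left out, against 4% beside 7.48% in the primary comparison. *Cd163* passed in all 18. Genes that missed the threshold in the primary comparison and passed in some alternatives were *Id1* and *Slc25a37* (6 of 18 each), *Lrp1* and *Slc39a14* (5 each), *Atoh8* (4), *Hfe* (2), and *Neo1*, *Nfe2l2* and *Uros* (1 each). *Slc25a28* did not pass with the deposited log2 values (-0.39, limma's adjusted p = 0.0709), nor when CONV-R replicate 2 or 5 or GF replicate 1, 2, 4 or 6 was left out. Over all genes 965 passed, 1527 with DESeq2 and 622 to 1260 with 1 mouse left out (622 when GF replicate 6 was, 625 when CONV-R replicate 4 was). Called macrophage markers went from 8 to 4 without GF replicate 6, an alternative chosen after seeing the data. Same-numbered libraries of the groups come from different mice, and their deviations correlated at -0.01 to 0.20 across genes. Of 5 GF libraries, 2 were most like the CONV-R library of their own number. These values describe likeness only and cannot decide whether same-numbered libraries shared a processing step. The block left out CONV-R replicate 3 and called 1101 genes. The cause of these differences was not tested. Counts of 8 to 116 per library limit *Slc11a1*, *Tfrc*, *Trf* and *Cp*.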
